A study of Mus musculus with 6 samples.

Results

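The mesothelium is the single layer of flat cells that covers the abdominal organs and the visceral fat depots and lets them slide past each other. Mesothelial cells have features of both epithelium and mesenchyme. They make the simple keratins and cell surface proteins shared with other epithelia, and they keep the transcription factor Wt1, which in mice also marks progenitors of visceral fat. Samples of visceral fat can include this surface layer.

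10 mesothelial genes were followed in adipose tissue of cavin-3 knockout (KO) and wild type (WT) mice, out of 19937 genes that had a probe set annotated with a single symbol. They were the surface glycoprotein gene Msln, the transcription factor genes Wt1 and Bnc1, the uroplakin genes Upk1b and Upk3b, the keratin genes Krt8, Krt18 and Krt19, and the membrane protein genes Lrrn4 and Gpm6a. Each was chosen by name, and each had 1 such probe set on the Affymetrix Mouse Gene 1.0 ST array, which carries short probes along the exons of a gene. KO mice were homozygous for a targeted allele that carries a lacZ/neo cassette instead of full-length Cavin-3. They came from targeted C57BL/6N embryonic stem cells of 1 clone injected into C57BL/6 blastocysts, and the WT mice were their litter mates. There were 3 KO and 3 WT arrays, of mice that were 10 weeks old, had eaten standard chow and were fasted for 6 hours. The labels call the tissue adipose and name no depot. All values below are log2 of the deposited intensity, and genotypes were tested with limma, with Benjamini-Hochberg adjustment over all 34760 probe sets. In RNA of whole tissue, fewer mesothelial cells and less of a transcript per cell cannot be told apart.

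Cavin-3 itself had a log2 intensity of 6.79, 6.78 and 7.12 on the KO arrays and of 10.05, 10.90 and 10.45 on the WT arrays, which was 1 of 2 probe sets past an adjusted p of 0.05 (limma). Some arrays stood apart in other genes. The methods state that only males were used, yet Xist, made from the inactive X chromosome of females, had a log2 intensity of 11.34 on KO replicate 3 and 11.15 on WT replicate 2, against 3.70 to 6.30 on the other 4 arrays. The Y-linked gene Uty was at 3.21 and 3.36 on these same 2 arrays and at 7.89 to 8.14 on the others. Spink8, a secretory gene of the epididymis, was at 11.49 on KO replicate 2 and 11.89 on WT replicate 1 and at 4.12 to 5.31 on the other 4. The median intensity of an array was between 67.1 and 70.8. All 12 measured adipocyte genes, Adipoq and Plin1 among them, lay above the array's median on every array, and their mean log2 intensity spanned 11.96 to 12.06 on KO arrays and 11.86 to 12.02 on WT arrays.

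None of the 10 mesothelial genes differed between KO and WT beyond the spread of the replicates. By limma the adjusted p was 1.0 for each of the 10 genes. The count past an adjusted p of 0.05 was therefore 0 of 10, against 0.00502% of all genes and 0.00575% of all probe sets. The count with an unadjusted p under 0.05 was also 0, against 0.838% of all genes (0.361% higher and 0.477% lower in KO). With the methods' t-test the number was 0 as well. The values of KO and WT overlapped for each of the 10, while 4.61% of all genes had values that did not overlap. 6 of the 10 were lower in KO and 4 higher, where 49.7% of all genes were lower, and the median log2 difference was -0.06, against 0.00 for all genes. Which side they took depended on the arrays: 4 were lower in KO without KO replicate 1 or without WT replicate 2, 8 without KO replicate 2, 9 without WT replicate 3 and 10 without both KO replicate 2 and WT replicate 1. Every one of the 10 lay above the median of its array on all 6 arrays, as did 53.1% of all genes, and detection above background was not judged.

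**Figure D1:**
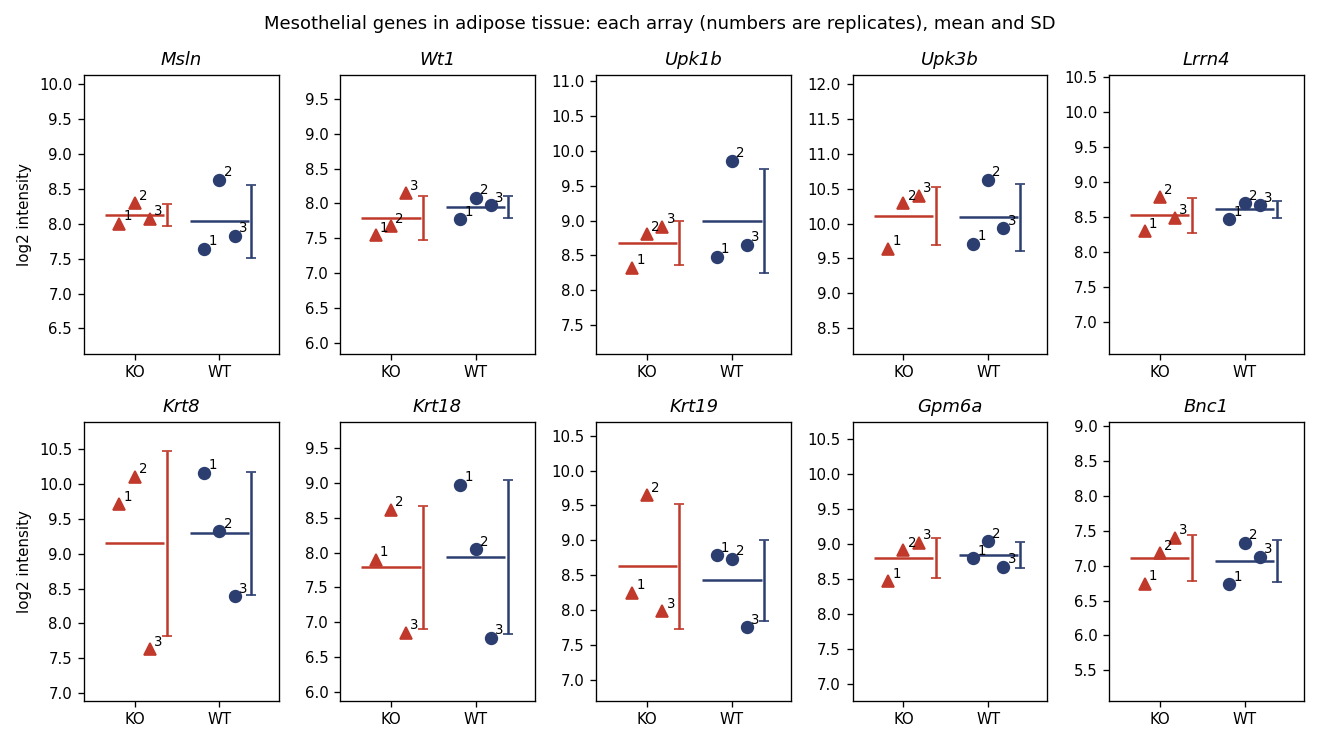
Log2 intensity of the 10 mesothelial genes on each array, with KO (triangles) left of WT (circles), the replicate number beside each point, a line at each mean and a bar of 1 SD. Every panel spans the same height of log2 units. KO and WT overlap in each panel, and the keratins Krt8, Krt18 and Krt19 are spread most widely.

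The 10 genes differed in how tightly they held across animals. Lrrn4, Gpm6a, Wt1 and Bnc1 varied by 0.49 to 0.66 between the highest and the lowest array, Msln and Upk3b both by 0.99, Upk1b by 1.53, and Krt19, Krt18 and Krt8 by 1.89, 2.20 and 2.53. A range above 1 was reached by 4 of the 10 and by 7.65% of all genes. Only 1.34% of all genes had a wider range than Krt8, while 31.1% had a wider range than Lrrn4. The difference between KO and WT was smaller than the range inside 1 genotype for each of the 10, which also held for 98.2% of all genes.

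Msln encodes mesothelin, a lipid-anchored glycoprotein of the mesothelial surface that binds the mucin Muc16. Its log2 intensity was 8.0, 8.30 and 8.07 on the KO arrays and 7.64, 8.63 and 7.83 on the WT arrays. The KO values lay between the lowest and the highest WT value, and WT replicate 2 stood above the rest. The KO level was 1.07-fold of WT with a 95% interval of 0.688 to 1.65 (limma). Without WT replicate 2 the log2 difference of Msln was 0.39 (unadjusted p = 0.0300, adjusted p = 1.0 from limma). Muc16, the partner of mesothelin, was also highest on WT replicate 2, with 6.25, 6.48 and 6.39 on the KO arrays and 5.90, 7.05 and 6.00 on the WT arrays. Muc16 lay above the array's median on 4 of the 6 arrays, and it was named after its values were seen. Among 1522 genes outside the 10 with a range of at least 1, only Lgals3, the gene of the lectin galectin-3, was closer to Msln in profile. Genes of narrower range were not compared, and Msln itself had a range of 0.99. The likeness was measured as the root mean square difference of the centred log2 values over 6 arrays, which was 0.09 for Muc16 and 0.07 for Lgals3. The next closest gene, Fasn, was nearly as close at 0.11.

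Wt1 encodes a zinc finger transcription factor that the mesothelium carries from the embryo into the adult. It had a log2 intensity of 7.54, 7.68 and 8.15 on the KO arrays and of 7.77, 8.08 and 7.98 on the WT arrays. KO replicate 3 was the highest of all 6 arrays and KO replicates 1 and 2 were the lowest. Wt1 was at 0.898-fold in KO (95% interval 0.667 to 1.21), and it was the 1 gene of the 10 that stayed on the same side, lower in KO, without each array in turn (0.793-fold to 0.978-fold). Without KO replicate 3 the unadjusted p was 0.0460 and the adjusted p 1.0 from limma. Wt1os, an antisense RNA gene, lies beside Wt1 in RefSeq and was not analysed here.

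Bnc1 encodes basonuclin-1, a zinc finger protein known from keratinocytes and germ cells as well as mesothelium. Its log2 intensity was 6.74, 7.18 and 7.40 on the KO arrays and 6.73, 7.33 and 7.13 on the WT arrays. The lowest KO and the lowest WT array were almost equal, and KO was at 1.03-fold of WT (0.715 to 1.49).

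Lrrn4, a membrane protein gene with leucine-rich repeats, was the steadiest of the 10. It had a log2 intensity of 8.29, 8.78 and 8.49 on the KO arrays and of 8.47, 8.70 and 8.66 on the WT arrays. Both the lowest and the highest value of Lrrn4 were KO arrays, with all WT arrays between them. The KO level was 0.941-fold (0.736 to 1.2). Gpm6a, a membrane glycoprotein gene of the proteolipid family best known from neurons, was at 8.47, 8.91 and 9.02 on the KO arrays and at 8.80, 9.04 and 8.68 on the WT arrays. KO replicate 1 was the lowest, and the KO level was 0.973-fold (0.727 to 1.30). The 95% interval stayed within 1.5-fold to either side for 4 of the 10 genes, Wt1, Lrrn4, Gpm6a and Bnc1, and for 83.7% of all genes. It stayed within 2-fold for 6 of the 10, these and Msln and Upk3b, and for 94.6% of all genes.

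**Figure D2:**
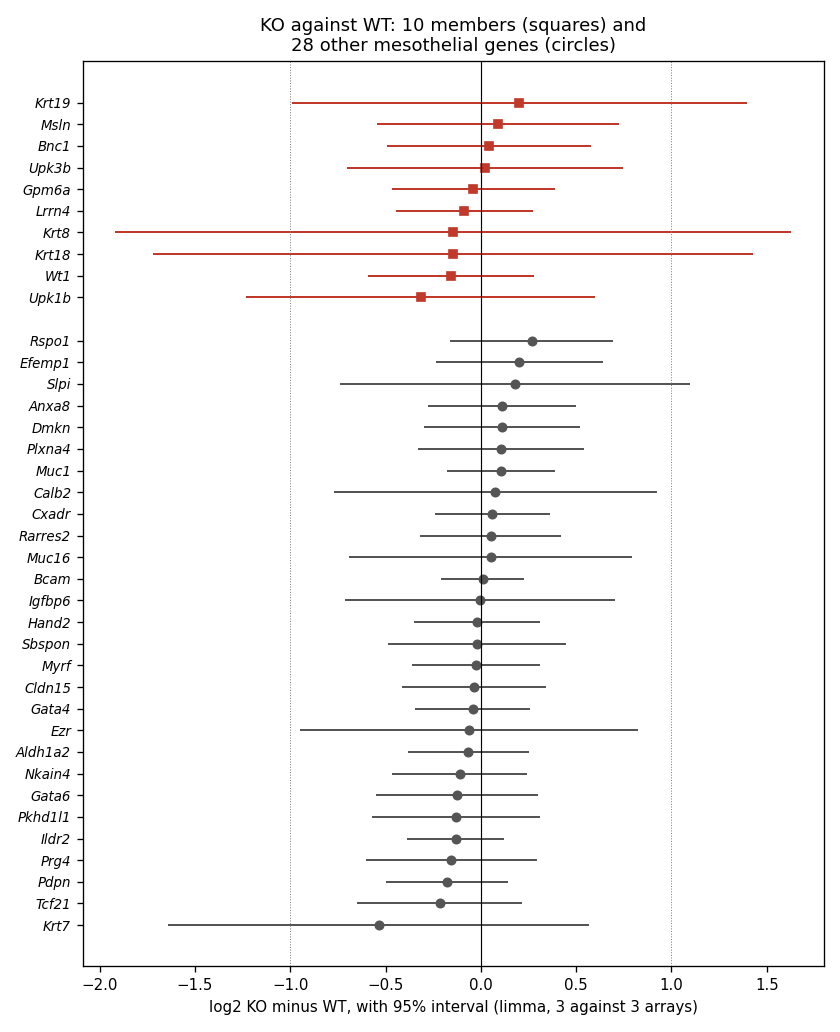
Log2 difference of KO minus WT with its 95% interval from limma for the 10 mesothelial genes (squares) and for 28 further mesothelial genes (circles), with dotted lines at 2-fold to either side. Every interval includes 0, and the intervals of Krt8 and Krt18 pass 2-fold on both sides.

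Uroplakins are membrane proteins that form the plaques of the bladder surface, and Upk1b and Upk3b are also made by mesothelium. Upk1b, of the tetraspanin family, had a log2 intensity of 8.33, 8.81 and 8.91 on the KO arrays and of 8.48, 9.85 and 8.65 on the WT arrays. WT replicate 2 alone stood above the KO range, and WT replicates 1 and 3 lay within it. The KO level was 0.803-fold (0.427 to 1.51) with all arrays and 1.08-fold without WT replicate 2. Upk3b, with a single membrane span, was at 9.64, 10.29 and 10.40 on the KO arrays and at 9.71, 10.63 and 9.93 on the WT arrays. It was again lowest on KO replicate 1 and highest on WT replicate 2, and the KO level was 1.01-fold (0.616 to 1.67). The root mean square difference between the 2 uroplakins across the arrays was 0.24. Upk3b was closer to Bnc1 (0.16), Msln (0.21) and Gpm6a (0.21) than to Upk1b.

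On the same array, genes of the bladder lining that mesothelium is not known for were high. Upk1a, the partner of Upk2 in the bladder, had a log2 intensity of 5.27, 6.05 and 5.26 on the KO arrays and of 6.41, 9.61 and 5.23 on the WT arrays. Sprr1a, a cornified envelope gene of stratified epithelium, was at 5.45, 5.21 and 5.89 on the KO arrays and at 5.60, 9.80 and 5.73 on the WT arrays. Of 16 genes in a urothelium list, 13 were highest on WT replicate 2, and 3 of the 16 lay above the array's median on all 6 arrays. On KO arrays the mean log2 intensity of that list was 5.88 to 6.40, and on WT arrays 5.88 to 7.67. Its median log2 difference was -0.53 with all arrays and -0.10 without WT replicate 2. With all arrays 14 of the 16 were lower in KO, against 49.7% of all genes, and without WT replicate 2 it was 13. Neither the adjusted nor the unadjusted p of limma with all arrays was under 0.05 for any of the 16. The study names Upk1a, Upk2, Krt7 and Ly6d of this list as altered on the same arrays. The part of bladder-type transcripts in the Upk1b and Upk3b signal was not tested.

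Keratins 8, 18 and 19 form the intermediate filaments of simple epithelia, in which the type II keratin Krt8 pairs with a type I partner, Krt18 or Krt19. Krt8 had a log2 intensity of 9.71, 10.10 and 7.63 on the KO arrays and of 10.16, 9.33 and 8.39 on the WT arrays, a 5.76-fold spread between WT replicate 1 and KO replicate 3. The KO level was 0.905-fold with an interval of 0.266 to 3.08. Krt18 was at 7.89, 8.62 and 6.85 on the KO arrays and at 8.98, 8.05 and 6.78 on the WT arrays. It was lowest on WT replicate 3 and KO replicate 3, and the KO level was 0.902-fold (0.304 to 2.68). Krt19 was at 8.25, 9.65 and 7.99 on the KO arrays and at 8.78, 8.74 and 7.76 on the WT arrays, where KO replicate 2 was the highest. The KO level of Krt19 was 1.15-fold (0.505 to 2.62). The intervals of Krt8 and Krt18 included 2-fold in both directions, and that of Krt19 included 2-fold higher. Krt8 was at 1.53-fold in KO without KO replicate 3 and at 0.650-fold without KO replicate 2. Krt18 was at 1.29-fold without WT replicate 1 and at 0.605-fold without WT replicate 3.

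Krt8 and its partner Krt18 varied together, with a root mean square difference of 0.33, against 0.61 between Krt8 and Krt19. The likeness was not particular to the pair. Spint1, a gene of epithelia, was closer to Krt8 (0.29) and to Krt18 (0.17) than they were to each other. The genes are neighbours on chromosome 15 in RefSeq (GRCm38.p6), with no protein-coding gene between them, and are read away from each other. Their start regions are printed because the pair varied most, each as 250 bases before and 30 after the annotated start, 5′ to 3′ on the strand of the gene, from RefSeq. Capitals mark the letters TATAA, the core of the TATA box that positions the start of transcription, on either strand. In Krt8 the matches on both strands overlap in TTATAA at the annotated start, and in Krt18 the match begins 19 bases before it. Whether these letters work as a TATA box at either start was not tested. Krt8 is on the minus strand at chr15:102004313-102004592 and Krt18 on the plus strand at chr15:102027966-102028245.
Krt8: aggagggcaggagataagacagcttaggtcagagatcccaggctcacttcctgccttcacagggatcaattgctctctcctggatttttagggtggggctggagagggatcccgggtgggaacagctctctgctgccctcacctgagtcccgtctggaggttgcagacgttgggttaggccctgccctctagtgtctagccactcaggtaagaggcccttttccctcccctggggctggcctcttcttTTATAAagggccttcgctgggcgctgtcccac
Krt18: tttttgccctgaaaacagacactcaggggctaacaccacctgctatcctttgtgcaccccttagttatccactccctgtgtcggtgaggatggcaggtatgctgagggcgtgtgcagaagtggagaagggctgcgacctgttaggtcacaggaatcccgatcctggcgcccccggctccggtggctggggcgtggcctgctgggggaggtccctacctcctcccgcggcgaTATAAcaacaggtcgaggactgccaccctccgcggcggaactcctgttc
TATAA is found on either strand in 24.0% of the 32851 start regions of the same length. The letters GGGCGG (GC box) and CATTCC (the core bound by TEAD transcription factors) are in neither region, and were found in 34.7% and 13.9% of all start regions.

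For comparison, CATTCC or its reverse complement GGAATG was in the start regions of Upk3b, Lrrn4 and Gpm6a, which is 3 of the 6 mesothelial genes with a sequence in the table used here. The table held Upk3b, Lrrn4, Krt8, Krt18, Gpm6a and Bnc1. Upk3b (plus strand, chr5:136038246-136038525) and Lrrn4 (minus strand, chr2:132880833-132881112) are shown, with these letters in capitals. Their ranges over the arrays were 0.99 and 0.49. The match begins 241 bases before the start in Upk3b and 196 bases before it in Lrrn4.
Upk3b: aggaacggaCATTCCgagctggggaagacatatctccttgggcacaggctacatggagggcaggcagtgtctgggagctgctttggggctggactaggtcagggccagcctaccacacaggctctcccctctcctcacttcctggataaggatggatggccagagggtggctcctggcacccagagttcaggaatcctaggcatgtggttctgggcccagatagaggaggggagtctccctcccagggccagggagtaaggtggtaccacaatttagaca
Lrrn4: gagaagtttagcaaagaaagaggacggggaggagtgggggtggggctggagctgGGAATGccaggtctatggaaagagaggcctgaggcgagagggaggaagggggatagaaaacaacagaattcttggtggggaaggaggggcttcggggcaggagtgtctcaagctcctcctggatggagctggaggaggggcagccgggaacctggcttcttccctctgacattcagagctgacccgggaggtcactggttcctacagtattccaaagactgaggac
The start region of Bnc1 held GGGCGG or its reverse complement 5 times, and GCGNGGGCG, a site shared by WT1 and EGR factors, was in 0 of the 6 genes and in 5.30% of all start regions. These matches describe letters, and no binding was measured.

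The keratins shared part of their order over the arrays with markers of other epithelia. Epcam, an adhesion protein gene of epithelia, had a log2 intensity of 7.75, 8.05 and 5.27 on the KO arrays and of 8.99, 5.51 and 6.01 on the WT arrays. Of 16 genes in a general epithelium list (Epcam, Cdh1, claudins, Esrp1 and others), 14 were highest on WT replicate 1, and 0 of the 16 lay above the array's median on all 6 arrays. The mean log2 intensity of that list was 6.37, 7.22 and 5.43 on the KO arrays and 7.60, 5.91 and 5.60 on the WT arrays. The mean of the 3 keratins was 8.62, 9.45 and 7.49 on the KO arrays and 9.31, 8.70 and 7.64 on the WT arrays. Both were lowest on KO replicate 3 and WT replicate 3, and both were highest on KO replicate 2 and WT replicate 1. They parted on WT replicate 2. There the epithelium list (5.91) was close to its value on WT replicate 3, while the keratins (8.70) were nearer to theirs on WT replicate 1. By profile, Spint1, a protease inhibitor gene of epithelia, came closest to both Krt8 (root mean square difference 0.29) and Krt18 (0.17), and Ildr1, a gene of tricellular junctions, came closest to Krt19 (0.19), among 1522 genes with a range of at least 1. The mean of 14 epididymis genes was 4.50, 6.13 and 4.49 on the KO arrays and 6.48, 4.37 and 4.41 on the WT arrays. Of the 14, 1 lay above the array's median on all arrays. Only 5 of the 14 had a range above 1, Spink8 the widest, and the median range of the list was 0.44. Of 16 desmosomal protein and other keratin genes, 7 had a range above 1. The widest was that of Dsp (desmoplakin, which anchors keratin filaments and is also in the general epithelium list), with 7.46, 7.61 and 5.31 on the KO arrays and 8.02, 6.09 and 6.00 on the WT arrays. 11 smooth muscle genes were also highest on KO replicate 2 and WT replicate 1, with a mean of 7.77, 9.76 and 8.45 on the KO arrays and of 9.98, 8.76 and 8.11 on the WT arrays. For 11 genes listed for the female reproductive tract, the mean was 5.49, 5.91 and 5.31 on the KO arrays. It was 6.08, 5.46 and 5.14 on the WT arrays, so the same 2 arrays had the highest means. The Y-linked gene Uty was at 7.96 on KO replicate 2 and 7.89 on WT replicate 1. The part of female tract tissue in this mean was not tested. By gene, 4 of the 11 peaked on WT replicate 1 and 0 on KO replicate 2, where 5 had their lowest value. Ltf had the widest range, with 7.70 on KO replicate 2 and 8.82 on WT replicate 1. The part of other cell types in the keratin signal was not tested. Without both KO replicate 2 and WT replicate 1, the arrays with high Spink8, the log2 difference was -0.19 for Krt8, -0.04 for Krt18 and -0.13 for Krt19, with an adjusted p of 1.0 each from limma.

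**Figure D3:**
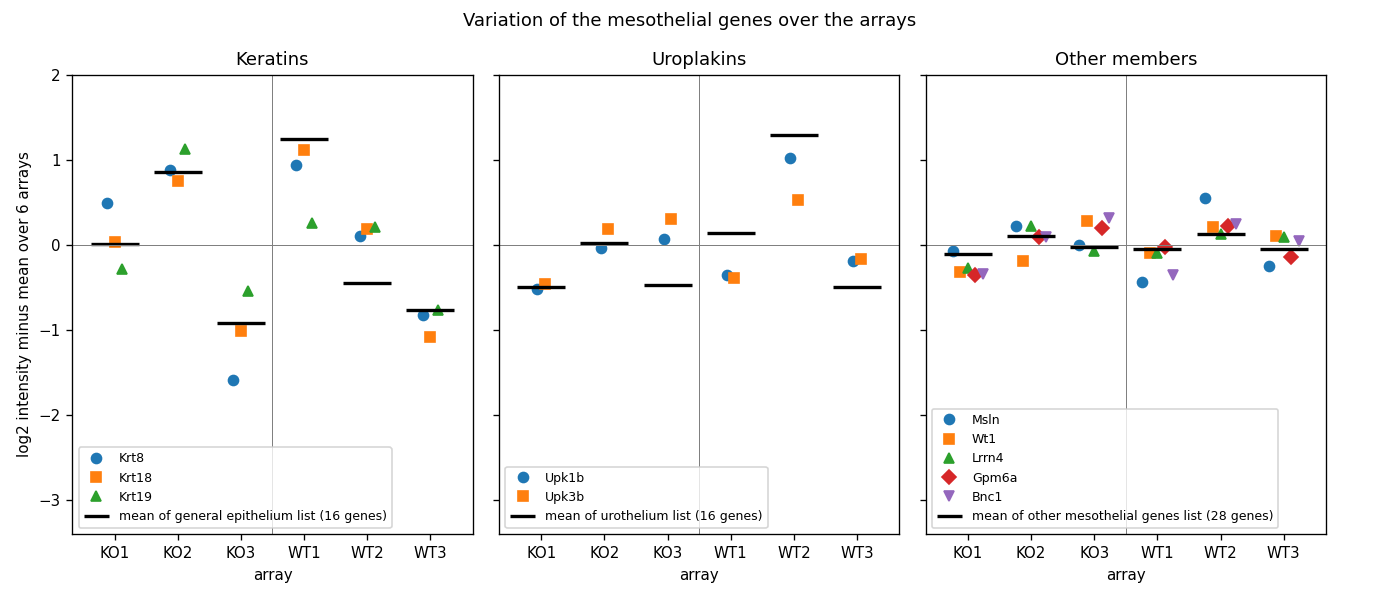
Log2 intensity of each mesothelial gene on each array after subtraction of its mean over the 6 arrays, for keratins, uroplakins and the other 5 genes, with a black bar at the mean of the general epithelium, urothelium or further mesothelial list. The keratins span from 1.59 below to 1.12 above their means, and the other 5 genes stay within 0.55.

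The 7 genes other than keratins followed another order of arrays than the keratins. Their mean log2 intensity was 8.15, 8.56 and 8.63 on the KO arrays and 8.23, 8.90 and 8.41 on the WT arrays. KO replicate 1 was the lowest array for 5 of the 7 and WT replicate 1 for the other 2, Msln and Bnc1. WT replicate 2 was the highest for 4, KO replicate 3 for Wt1 and Bnc1, and KO replicate 2 for Lrrn4. The 2 arrays with high Xist, KO replicate 3 and WT replicate 2, had the highest means of these 7 genes. The mean on KO replicate 2 (8.56) was close to that on KO replicate 3 (8.63). Msln and Lrrn4 were higher on KO replicate 2 than on KO replicate 3, and the rest of the 7 were lower. Without both KO replicate 3 and WT replicate 2 the median log2 difference of the 10 genes was 0.09, with 4 lower in KO. The means of a fibroblast and progenitor list and of a skeletal muscle list were highest on the 2 arrays with high Xist. 12 fibroblast and progenitor genes had a mean of 9.63, 9.76 and 10.10 on the KO arrays and of 9.82, 9.92 and 9.89 on the WT arrays, and were also lowest on KO replicate 1. Of these 12, 7 were highest on KO replicate 3 and only 1 on WT replicate 2. The mean on WT replicate 2 was close to that on WT replicate 3. 12 skeletal muscle genes, of which 3 lay above the array's median on all arrays, had a mean of 5.73, 6.27 and 8.73 on the KO arrays and of 6.63, 8.68 and 5.63 on the WT arrays. The part of these cell types in the signal of the 7 genes was not tested.

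The 28 further mesothelial genes were listed for the cell type, with earlier results of these data known. Across them the lowest unadjusted p of limma was 0.176, so that 0 passed either threshold, and KO and WT overlapped for each. 16 were lower and 12 higher in KO, with a median log2 difference of -0.02. 21 of the 28 lay above the array's median on all arrays, and Calb2 (calretinin), Gata4, Hand2, Muc1 and Sbspon did so on none. Rspo1, a secreted activator of Wnt signalling, had this lowest p. It had a log2 intensity of 8.76, 8.27 and 8.39 on the KO arrays and of 7.94, 8.32 and 8.37 on the WT arrays, and KO was at 1.2-fold (0.897 to 1.61). Pdpn (podoplanin), a surface mucin-type protein of mesothelium and lymphatic vessels, was at 0.885-fold (0.711 to 1.10), and Ildr2 at 0.912-fold (0.768 to 1.08). The widest range belonged to Krt7, a simple epithelial keratin also made in the bladder, which was at 6.70, 7.51 and 6.94 on the KO arrays and at 7.36, 8.57 and 6.83 on the WT arrays. Krt7 was at 0.689-fold in KO (0.322 to 1.48). The study lists Krt7 as altered on these arrays, and its highest value was again on WT replicate 2. Slpi, a protease inhibitor gene of mucosal and mesothelial surfaces, was the next widest, with 7.46, 7.86 and 6.64 on the KO arrays and 7.62, 6.59 and 7.22 on the WT arrays.

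**Figure D4:**
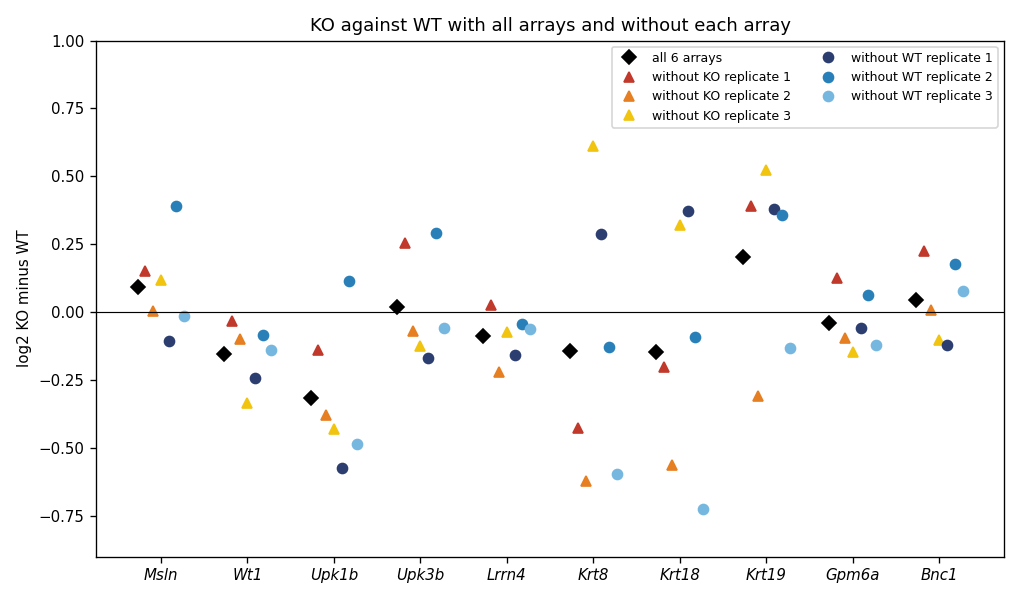
Log2 difference of KO minus WT for each of the 10 genes with all 6 arrays (diamonds) and without each KO array (triangles) or WT array (circles). For 9 of the 10 genes at least 1 array changed the side of 0 on which the difference lay, and Wt1 is the exception.

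The mean profile of the 10 genes over the arrays, centred for each gene, was -0.21, 0.34 and -0.21 on the KO arrays and 0.06, 0.34 and -0.32 on the WT arrays. The 8 genes closest to it were Fxyd3, Popdc2, Optc, Dmpk, Kcnj2, Sptlc3, Tm7sf2 and Cers3, at root mean square differences of 0.21 to 0.26 over 6 arrays. Only genes outside the 10 with a range of at least 1 were compared, while the mean profile itself spanned 0.66. Of the 28 further mesothelial genes, 5 had a range above 1, so most could not appear. That none of the 8 is in the lists of mesothelial genes therefore says little. Among the 10 genes themselves the closest pair was Upk3b and Bnc1 (0.16), and the farthest was Upk1b and Krt8 (1.12).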

How the data were processed

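Total RNA of adipose tissue from 3 cavin-3 KO and 3 WT mice was amplified into cDNA, labelled and hybridised to Mouse Gene 1.0 ST arrays. The authors processed the scans with GenePattern modules and deposited 1 linear intensity per probe set, for which the submitters' notes name RMA, a method that corrects background, normalizes by quantiles and summarises probes. Its version and the genome build are not given in the sources used here. Depth has no meaning for arrays, and precision is limited by their number. Scanner files were not used, so signal over background was not judged.

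The deposited intensity of each probe set was converted to log2. The genotypes were tested with limma 3.58.1 in R 4.3.3 without covariates, adjusting by Benjamini-Hochberg over 34760 probe sets, and intervals cover 95%. The test was tried on simulated data with known changes. Genes were named from the platform annotation, in which 21640 probe sets have 1 symbol. Of these 21553 matched RefSeq by gene ID and 0 symbols changed. A further 1321 probe sets have several symbols and 11799 none, and these name no gene. A gene with more than 1 probe set was represented by the brightest on average.

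The genes followed, the marker lists, tests and alternatives were chosen with earlier results of these data known, and the motifs after the sequences were seen. Besides the 10 genes, the text names the targeted gene, array checks, list genes with the smallest unadjusted p or the widest range, and genes closest in profile among those with a range of at least 1. Other named genes (Ly6d, Plin1, Cdh1, Muc16, Lgals3, Fasn and the dim mesothelial genes) were chosen after their values were seen. The lists of female tract, gonadal steroid, smooth muscle, endothelial, macrophage, skeletal muscle and epidermis genes each held 0 genes past an adjusted p of 0.05.

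Alternatives were the Student t-test of the methods on log2 and linear values, requantiling or recentring the arrays, dropping dim or unnamed probe sets, a trended robust variance, weighting arrays, blocking on the replicate number, averaging probe sets per gene, and omitting arrays. Leaving out KO replicate 2 with WT replicate 1 was added after the data were seen. The labels give litter mates but do not tie a replicate number to a litter, so p-values rest on the spread between these 6 arrays.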

Additional observations from a re-analysis of the deposited data

How the results depend on the processing

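No alternative brought a mesothelial gene past an adjusted p of 0.05 (limma or the methods' t-test). Of 180 values of the 10 genes under 18 alternatives, 151 kept the direction and 29 did not, 18 of them without a single array, and 3 had an unadjusted p under 0.05. The cause of these turns was not tested. The log2 difference without each array in turn was -0.10 to 0.39 for Msln, -0.33 to -0.03 for Wt1, -0.57 to 0.11 for Upk1b, -0.17 to 0.29 for Upk3b, -0.22 to 0.027 for Lrrn4, -0.62 to 0.61 for Krt8, -0.73 to 0.37 for Krt18, -0.31 to 0.52 for Krt19, -0.15 to 0.13 for Gpm6a and -0.12 to 0.23 for Bnc1. With array weights it was 0.60 for Krt8, 0.56 for Krt18, -0.014 for Upk3b and -0.074 for Bnc1. Without KO replicate 3 and WT replicate 2 together it was 0.63 for Krt8, 0.38 for Krt18, 0.68 for Krt19 and 0.42 for Msln. Without KO replicate 2 and WT replicate 1, a pair chosen after seeing the data, 10 genes were lower in KO, with -0.19 for Msln, -0.26 for Upk3b, -0.64 for Upk1b, -0.29 for Lrrn4, -0.13 for Krt19 and -0.16 for Bnc1. With the t-test on linear values Krt8 was at 0.0090. Between 4 and 9 of the 10 genes were lower in KO without single arrays, and their median lay between -0.16 and 0.09.

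Cavin-3 kept its direction throughout, at -3.78 to -3.35 without single arrays (adjusted p from limma 0.0459 to 0.509), but lost its call with the methods' t-test (log2 values -3.57, linear values -3.60), without both KO replicate 3 and WT replicate 2 (-3.46) and without both KO replicate 2 and WT replicate 1 (-3.72). With the replicate number as a block its log2 difference was -3.57 with an adjusted p of 0.681 from limma, and 0 probe sets passed, against 2 without the block. Deviations from the group mean correlated at -0.15, -0.37 and -0.09 between same-numbered KO and WT arrays. The labels do not say what the numbers mark, and they were not taken as pairs. Signal over background was not judged, and the number of arrays limits the precision.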
